A study of Mus musculus and Sus scrofa with 12 samples.

Results

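In the mouse forelimb at embryonic day E11.5, the promoters of all 21774 protein-coding genes of the RefSeq annotation (GRCm38.p6) were sorted by whether they carried a called peak of H3K4me3, of H3K27ac, of both or of neither. A peak is a stretch of genome where the authors called reads of an immunoprecipitated histone modification as enriched. A gene was taken to carry a mark when at least 1 bp of a peak fell within 1 kb, to either side, of a transcription start site (TSS) of any of its annotated mRNAs. All 21774 genes were placed: 8810 had both marks (40.5% of coding genes), 5339 had H3K4me3 only (24.5%), 249 had H3K27ac only (1.14%) and 7376 had neither (33.9%). Since these states were set by the peaks themselves, their sizes are a description. Shares of marked genes, and the widths, reach, overlaps and distances of peaks, come from the peak lists that set the states. Those values are therefore descriptions too and are not independent of the sorting. Base composition, short sequence motifs, calls of a further mark (H3K4me1), the state of the pig gene and the chromosome were not used by the sorting.

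The embryos were wild-type, came from natural mating and were collected as littermates. Of the 12 samples in the series, 4 enter this comparison, namely 2 biological replicates for H3K4me3 and 2 for H3K27ac, each split into technical replicates. Chromatin was fixed with formaldehyde and profiled by ChIPmentation, in which a transposase adds sequencing adapters to chromatin still bound to the antibody. The mouse H3K4me1 list and the pig lists from forelimbs at day 23 served as other readouts. Each mark has 1 deposited list, a consensus over its replicates, with 18353 peaks for H3K4me3 and 20875 for H3K27ac. The lists hold positions alone, so no value carries a spread over replicates and the depth is unknown. Intervals in the text are 95% intervals that cover counting error over genes only, and genes are not replicates of the embryos. Whole forelimbs hold many cell types, and with bulk chromatin a mark in fewer cells and a weaker mark in every cell cannot be told apart. A promoter without a call is one where no peak was called, which is not the same as one without the mark.

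H3K4me3, trimethylation of lysine 4 of histone H3, is laid down at promoters by the SET1 and MLL methyltransferase complexes, which are drawn to unmethylated CpG dinucleotides, and it is found at active promoters and also at many silent ones in CpG islands. H3K27ac, acetylation of lysine 27 on the same histone, is laid down by the acetyltransferases CBP and p300 and is found at active promoters and enhancers. The same lysine can instead be methylated by Polycomb repressive complexes at developmental genes, and that modification is not among those analysed here.

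The promoter sequences that follow, from RefSeq on GRCm38.p6, are single examples of promoters in each state, with CpG dinucleotides in capitals, and they need not have the typical base composition of their state. Each runs from 250 bases before to 50 bases after a start site, in the direction of transcription. Islr2, which encodes a membrane protein of developing neurons, and Arl6ip4, which encodes a nuclear splicing-related protein, stand for the widest H3K4me3 peaks without H3K27ac. Zmynd10, which encodes a factor for assembly of ciliary dynein arms, and Lctl, which encodes a klotho-related protein, stand for the widest H3K27ac peaks without H3K4me3. Prrx1, a homeobox factor of limb mesenchyme, and Ppia, which encodes the housekeeping enzyme cyclophilin A, had both marks, and Alb, the liver gene of serum albumin, had neither. Ppia was added after the values had been seen, as a CpG-rich promoter with both marks.
Islr2 (chr9:58204270-58204569, minus strand): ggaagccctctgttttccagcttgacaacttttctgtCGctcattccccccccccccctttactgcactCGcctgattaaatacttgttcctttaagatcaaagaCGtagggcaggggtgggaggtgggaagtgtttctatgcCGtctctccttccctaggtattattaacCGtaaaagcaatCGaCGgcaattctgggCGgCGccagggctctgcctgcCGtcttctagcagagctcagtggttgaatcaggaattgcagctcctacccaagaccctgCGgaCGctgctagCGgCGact
Arl6ip4 (chr5:124115858-124116157, plus strand): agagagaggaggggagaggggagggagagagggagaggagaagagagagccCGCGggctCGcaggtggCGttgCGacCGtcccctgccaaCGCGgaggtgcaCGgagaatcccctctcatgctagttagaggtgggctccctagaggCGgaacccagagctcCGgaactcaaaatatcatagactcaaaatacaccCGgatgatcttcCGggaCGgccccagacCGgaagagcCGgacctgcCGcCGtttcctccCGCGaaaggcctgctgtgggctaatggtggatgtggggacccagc
Zmynd10 (chr9:107547054-107547353, plus strand): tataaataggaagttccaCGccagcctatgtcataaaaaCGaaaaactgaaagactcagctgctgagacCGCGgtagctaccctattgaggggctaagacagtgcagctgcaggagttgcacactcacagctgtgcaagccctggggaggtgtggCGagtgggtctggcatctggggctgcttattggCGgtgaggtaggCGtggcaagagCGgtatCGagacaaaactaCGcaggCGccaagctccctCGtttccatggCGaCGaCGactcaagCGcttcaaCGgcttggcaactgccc
Lctl (chr9:64116897-64117196, plus strand): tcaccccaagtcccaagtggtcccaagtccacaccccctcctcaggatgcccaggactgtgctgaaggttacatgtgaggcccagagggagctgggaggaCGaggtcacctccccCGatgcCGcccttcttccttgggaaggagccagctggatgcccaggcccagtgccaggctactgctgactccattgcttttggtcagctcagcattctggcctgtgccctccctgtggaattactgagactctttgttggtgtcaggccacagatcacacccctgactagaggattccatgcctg
Prrx1 (chr1:163313601-163313900, minus strand): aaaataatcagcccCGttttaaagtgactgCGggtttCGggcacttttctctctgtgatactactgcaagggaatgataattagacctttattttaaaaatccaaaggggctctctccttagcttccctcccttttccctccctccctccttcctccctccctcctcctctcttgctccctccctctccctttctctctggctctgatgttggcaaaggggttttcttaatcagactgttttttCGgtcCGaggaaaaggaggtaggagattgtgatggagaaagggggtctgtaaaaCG
Ppia (chr11:6415617-6415916, plus strand): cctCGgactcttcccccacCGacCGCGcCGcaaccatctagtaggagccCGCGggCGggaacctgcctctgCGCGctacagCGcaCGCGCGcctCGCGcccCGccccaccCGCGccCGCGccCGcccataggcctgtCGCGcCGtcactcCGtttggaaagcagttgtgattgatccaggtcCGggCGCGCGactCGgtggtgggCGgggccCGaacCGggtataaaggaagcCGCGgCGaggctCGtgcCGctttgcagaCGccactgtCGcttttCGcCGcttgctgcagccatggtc
Alb (chr5:90460620-90460919, plus strand): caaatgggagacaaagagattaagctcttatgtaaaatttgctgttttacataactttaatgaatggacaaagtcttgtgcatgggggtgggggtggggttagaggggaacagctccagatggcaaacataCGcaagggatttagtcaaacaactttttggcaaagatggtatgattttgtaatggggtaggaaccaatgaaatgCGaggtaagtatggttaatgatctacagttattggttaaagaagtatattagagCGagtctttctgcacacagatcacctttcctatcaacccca

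In these 300 bases Ppia held 43 CpGs, Arl6ip4 20, Zmynd10 17, Islr2 14, Prrx1 6, Lctl 3 and Alb 3. The ratio of observed CpGs to the number that the C and G content would give by chance was 1.16 at Ppia, 0.73 at Zmynd10, 0.69 at Arl6ip4, 0.64 at Islr2, 0.36 at Prrx1, 0.27 at Alb and 0.11 at Lctl. The 2 H3K27ac-only examples thus differed widely, and Zmynd10 was richer in CpGs here than the H3K4me3-only example Islr2. The printed Zmynd10 bases lie before its H3K27ac peak, which begins 454 bp from that start site. They are therefore not the sequence under the peak, whereas those of Lctl are. Ppia was chosen for its CpG content, so its contrast with Prrx1 was set by that choice. The printed Prrx1 bases lie outside H3K27ac, whose nearest peak was 923 bp from the start site.

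Nearly every coding gene with H3K27ac at a start site had H3K4me3 there too, but the reverse did not hold. H3K27ac was called at 41.6% of coding genes and H3K4me3 at 65.0%. Of the 9059 genes with H3K27ac, 97.3% also had H3K4me3 (96.9 to 97.6), whereas of the 14149 genes with H3K4me3, 62.3% also had H3K27ac (61.5 to 63.1). At 8747 of the 8810 genes with both, the marks lay in the window of the same start site, and at 8607 the widest H3K4me3 peak of the gene itself overlapped H3K27ac. Neighbouring genes can share a peak: the 8810 genes rested on 8459 H3K4me3 peaks and 8256 H3K27ac peaks, and 1458 of the 13654 H3K4me3 peaks at coding genes (10.7%) touched the windows of 2 or more genes.

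The widths of the 2 peaks at genes with both marks were compared next, using the widest peak of each mark at the gene. The median H3K27ac peak was 3179 bp wide (quartiles 2507 to 3953) and the median H3K4me3 peak 3594 bp (3185 to 4049). The median ratio of H3K27ac to H3K4me3 width was 0.876 (0.870 to 0.884), with quartiles of 0.710 and 1.06. H3K27ac was the narrower at 6087 genes (69.1%) and the wider at 2717 (30.8%), and it was more than 2 times as wide at only 106. H3K4me3 covered a median of 96.8% of the H3K27ac peak, while H3K27ac covered 77.6% of the H3K4me3 peak.

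Most of the difference in width lay on the side of the gene body. Where the widest peaks of a gene overlapped, at 8407 genes, H3K27ac ended a median of 448 bp before H3K4me3 at the downstream edge (428 to 471) and 46 bp before it at the upstream edge (38 to 53). H3K27ac lay wholly inside H3K4me3 at 40.3% of these genes, passed it on the upstream side only at 37.2%, on the downstream side only at 15.6% and on both sides at 6.82%. Reach from the gene's 5′ end was taken from the peak of each mark lying across that end, which need not be the widest. At the 5169 such genes with both marks and no divergent neighbour, H3K4me3 reached a median of 871 bp upstream and 2575 bp downstream. H3K27ac reached 986 bp upstream and 1965 bp downstream. A divergent neighbour here is a coding start site of another gene on the opposite strand within 1 kb. At the 1697 divergent genes chosen the same way, H3K4me3 reached 2011 bp and 2027 bp to the 2 sides and H3K27ac 1544 bp and 1565 bp, so both marks were close to symmetric. The median ratio of widths was 0.827 at divergent genes and 0.893 at the others.

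**Figure D1:**
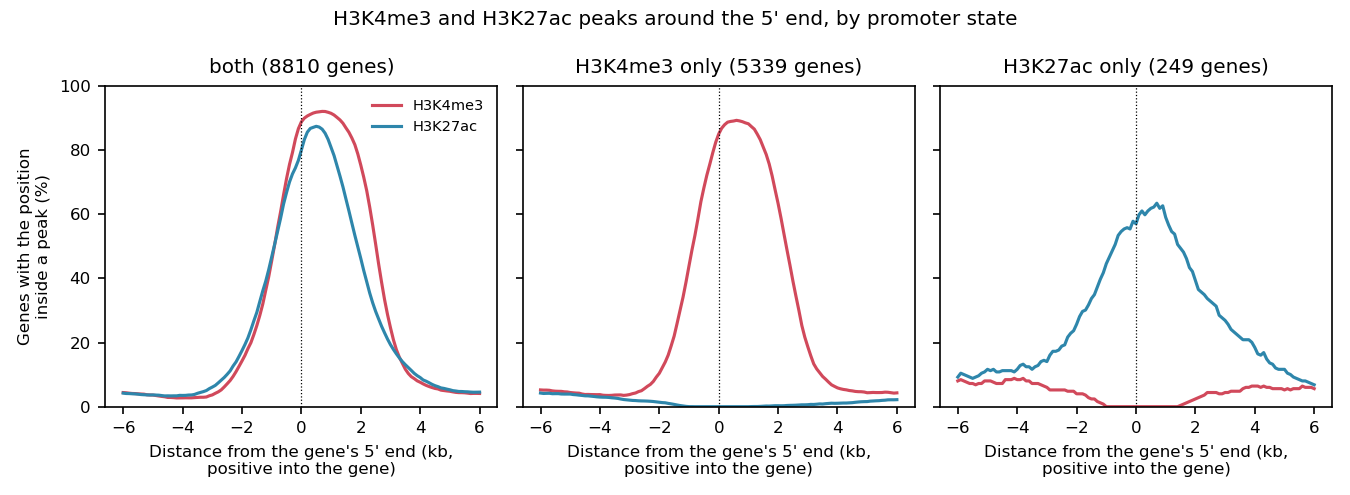
Share of genes (%) whose position at each distance from the gene's 5′ end (kb, positive into the gene) lies inside an H3K4me3 (red) or H3K27ac (blue) peak, in the 3 states with a mark. At genes with both, 92.1% had H3K4me3 at 700 bp downstream and 87.4% had H3K27ac at 500 bp, and at 2 kb downstream the shares were 75.3% and 46.2%.

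H3K4me3 was a little narrower where H3K27ac was missing, with a median of 3335 bp (3313 to 3361) at the 5339 H3K4me3-only genes against 3594 bp (3578 to 3613) at genes with both. By deciles of H3K4me3 width, the share of genes that also had H3K27ac was 38.4% (35.9 to 40.9) in the narrowest decile, of 211 to 2665 bp, and 72.2% (69.8 to 74.4) in the widest, of 4441 bp and more. The rise was steepest at the narrow end, and the shares of the 4 widest deciles lay between 67.2% and 72.2%. Without H3K27ac, H3K4me3 at non-divergent genes reached 934 bp upstream and 2300 bp downstream of the 5′ end. The median H3K27ac peak was 3171 bp wide without H3K4me3 (2992 to 3485) and 3179 bp with it (3149 to 3206), a difference within the intervals.

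**Figure D2:**
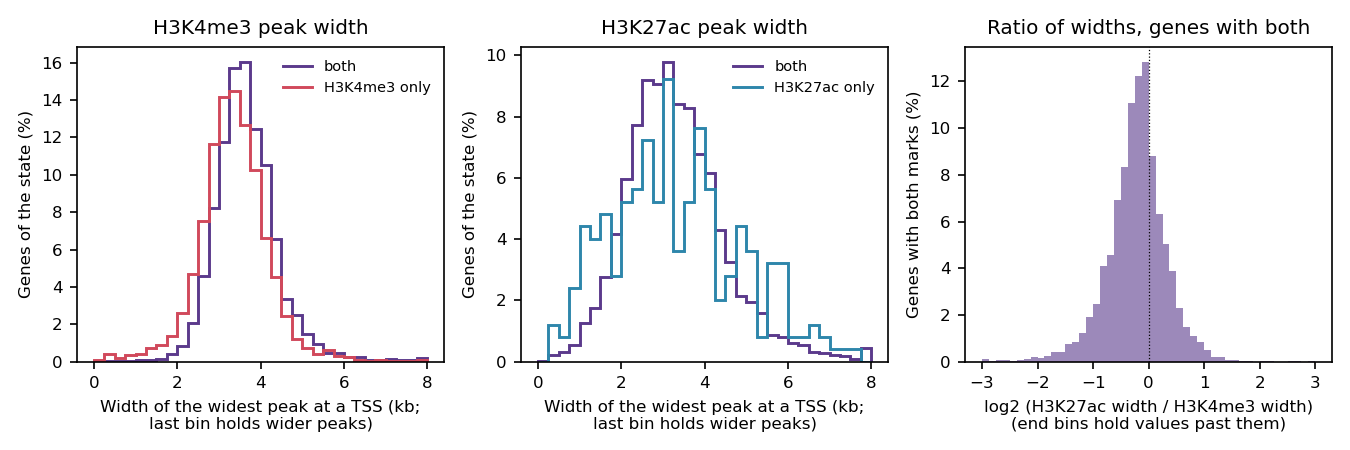
Width of the widest H3K4me3 peak (left) and H3K27ac peak (middle) at a start site, in kb, as the share of genes of each state (%), and the log2 ratio of the 2 widths at genes with both marks (right). H3K4me3 sits slightly to the left at H3K4me3-only genes, with medians of 3335 bp and 3594 bp, and most of the ratios lie below 0 on the log2 scale (69.1%).

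Several genes lay at the ends of the width ratio. The largest ratios were at Lst1, an immune gene of the histocompatibility region, with 6103 bp of H3K27ac and 262 bp of H3K4me3, and at Nup210l, with 3788 bp and 230 bp in peaks that do not overlap. H2ac19 (4619 bp and 338 bp, also not overlapping) and Adamts4 (8056 bp and 591 bp), a metalloprotease that cuts aggrecan, followed. Canonical histone genes supplied 3 of the 10, since H4c6 and H2bc14 had ratios of 4.01 and 3.65 beside 13.7 at H2ac19. At these genes the large ratio came with a narrow H3K4me3 peak, 2294 bp or less at all 10. Mfsd3 differed from the rest in that its H3K27ac peak, 14909 bp, was also the widest of the 10.

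The smallest ratios came with narrow H3K27ac peaks. Rtl8b, a retrotransposon-derived gene of the X chromosome, had 342 bp of H3K27ac in 6031 bp of H3K4me3, a ratio of 0.0567. Fosl2, which encodes a subunit of the AP-1 transcription factor, had 748 bp in 6186 bp, and Scrib, a gene of cell polarity, had 312 bp in 3221 bp. At Fosl2 this was 1 of 2 H3K27ac peaks that overlapped the H3K4me3 peak. The H3K27ac peaks that gave the 10 ratios were between 254 and 748 bp wide, while the H3K4me3 peaks were 3035 to 6186 bp wide.

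Base composition also differed between the states. A 5′ end was called CpG-island-like when the 1 kb centred on it had at least 50% GC and a ratio of observed to expected CpGs of at least 0.6, which held for 41.8% of coding genes. The share was 70.0% at genes with both marks (69.0 to 70.9), 51.2% at H3K4me3-only genes (49.8 to 52.5), 5.62% at H3K27ac-only genes (3.38 to 9.22) and 2.45% at genes with neither (2.12 to 2.83). The median ratio of observed to expected CpGs fell in the same order, at 0.735, 0.615, 0.210 and 0.180. Read the other way, 97.9% of CpG-island-like genes had H3K4me3 and 68.0% had H3K27ac, against 41.4% and 22.7% of the rest. Among genes that had H3K4me3, H3K27ac was called at 69.3% of those with a CpG-island-like 5′ end (68.3 to 70.2) and at 50.4% of those without (49.0 to 51.7).

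The relation to CpG content was not monotonic at the low end. CpG content was taken at the gene's 5′ end, whereas a mark could lie at any start site. At Runx2, for example, the ratio was 0.164 at the 5′ end and H3K27ac lay at downstream start sites. How far such genes shape the lowest deciles was not tested. The share of H3K4me3-marked genes with H3K27ac was 52.8% (50.2 to 55.4) in the lowest decile of the CpG ratio, 44.4% (41.8 to 47.0) in the next, and 81.6% (79.4 to 83.5) in the highest. Divergent gene pairs, which often share a CpG island, made up 21.1% of genes with both marks, 10.2% of H3K4me3-only genes, 2.41% of H3K27ac-only genes and 1.60% of genes with neither. Of the divergent genes with H3K4me3, 77.4% had H3K27ac (75.6 to 79.0), against 59.2% of the others (58.3 to 60.1).

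**Figure D3:**
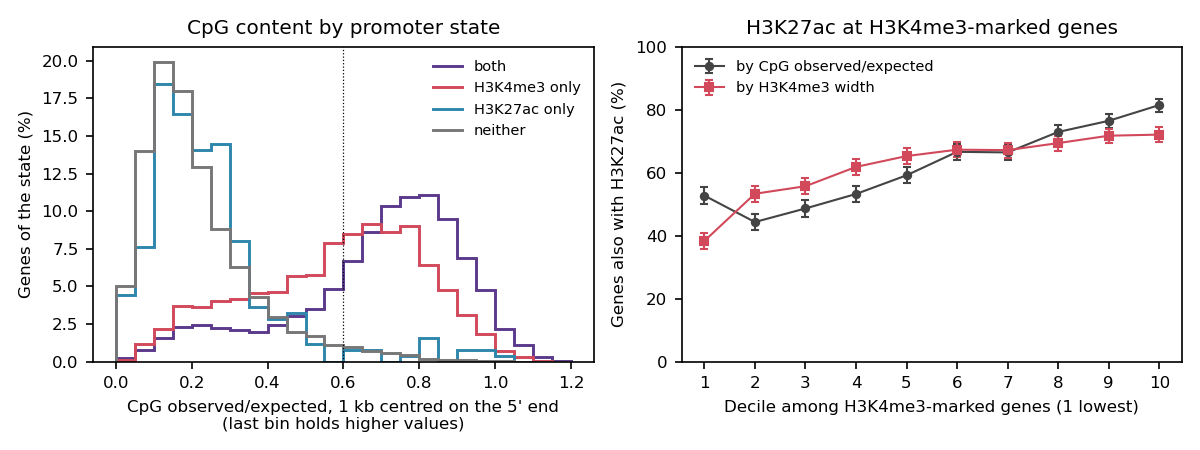
Left, ratio of observed to expected CpGs in 1 kb around the 5′ end, as the share of genes of each state (%), with the CpG-island threshold of 0.6 dotted. Right, share of H3K4me3-marked genes that also have H3K27ac (%), with 95% Wilson intervals, by deciles of the CpG ratio and of H3K4me3 width, rising to 81.6% and 72.2% in the highest deciles.

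Short motifs were counted in the same window of 250 bases before to 50 after the start, on both strands, for the 17492 genes with a RefSeq promoter entry. The GC box bound by SP factors, GGGCGG, was present at 65.7% of promoters with both marks and 64.8% with H3K4me3 only, against 19.9% with H3K27ac only, 11.2% with neither and 46.3% of all promoters. The TATA box, TATAAA, ran the other way, at 6.53%, 7.80%, 17.0% and 25.2% in the same order and 13.3% of all. CCAAT was found at near equal shares, from 36.9% to 40.1%, with 39.2% of all. The motifs that separated genes with both marks from those with H3K4me3 only were the ETS motif CCGGAAG (19.2% against 13.2%, 11.9% of all), the YY1 motif GATGGCG (7.47% against 4.10%, 4.45% of all) and the NRF1 motif GCATGCG (7.26% against 4.70%, 4.50% of all). The last 3 contain CG, as the GC box does, so their counts move with CpG content, and no count says that a factor was bound.

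H3K4me1, which flanks active promoters and marks enhancers, was called at the start sites of 54.6% of coding genes. By state the share was 77.9% at genes with both marks (77.0 to 78.8), 70.8% at H3K4me3-only genes (69.6 to 72.0), 47.8% at H3K27ac-only genes (41.7 to 54.0) and 15.1% at genes with neither (14.3 to 16.0). H3K4me3-only promoters had no H3K27ac within 1 kb by definition, so their distances to it start beyond that. The nearest H3K27ac peak lay a median of 27.3 kb from a start site, against 82852 bp at genes with neither mark. It lay within 5 kb at 464 of the 5339 H3K4me3-only genes (8.69%) and within 50 kb at 3711 (69.5%). At 57 genes the H3K4me3 peak itself overlapped an H3K27ac peak beyond the window. H3K27ac within the gene body was found at 20.9% of H3K4me3-only genes (19.8 to 22.0) and 5.91% of genes with neither. Median gene lengths were 21902 bp and 6632.5 bp, and these shares were not adjusted for length.

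The forelimb label was checked against defining genes before gene groups were read. The limb mesenchyme markers Prrx1, Prrx2, Twist1, Msx1, Tbx5, Hand2, Lhx9 and Meis1 all had both marks. Tbx5, the T-box factor of the forelimb, had both, whereas Tbx4 (5369 bp of H3K4me3) and Pitx1 (4162 bp), which specify the hindlimb, had H3K4me3 only, with the nearest H3K27ac 26.7 kb and 87 kb away. The liver markers Alb, Apoa1, Ttr and Afp had neither mark, as did the heart markers Myh6, Nkx2-5 and Nppa, although other heart genes were marked: Actc1, Myl7, Ryr2 and Ttn had H3K4me3 only, and 9 of 12 cardiac transcription factor genes had at least H3K4me3. Markers of other cells of the limb also carried marks, as given below, and how much each cell type added to the lists was not tested.

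Gene groups are described by counts, read against the 40.5% of all coding genes with both marks and 24.5% with H3K4me3 only. The lists were chosen with earlier results of these data known, so their shares are descriptions and no test. Of 36 limb mesenchyme genes, 35 had both marks. Their H3K4me3 peaks were wide, with a median of 5156 bp against 3503 bp over all H3K4me3-marked genes, and 27 of the 36 were CpG-island-like. Msx2, a homeobox target of BMP signalling, had 10260 bp of H3K27ac on 8050 bp of H3K4me3. Irx5, an Iroquois factor of the proximal and anterior limb, had 4010 bp on 9146 bp, and Osr2, a zinc finger factor, had 8451 bp on 6973 bp. Prrx1 had 5142 bp on 7907 bp, and Twist1, a basic helix-loop-helix factor, had 5828 bp on 7214 bp, in 1 of 2 H3K27ac peaks that overlapped its H3K4me3 peak. The peaks of these genes thus ran from well inside to well past H3K4me3.

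Tbx2 was the exception among the 36 and had the widest H3K4me3 peak of all H3K4me3-only genes. Its peak of 10912 bp, at chr11:85830668-85841579 on GRCm38, covers nearly the whole gene, which has 1 annotated start site. The nearest H3K27ac peak lay 1.37 kb from that start site and overlapped the H3K4me3 peak, just outside the window. With a window of 2.5 kb Tbx2 would therefore count as having both.

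Signalling pathways of the limb were divided by the part that a gene plays. Of 29 WNT pathway genes, 23 had both marks and 6 had H3K4me3 only. Wnt5a, a ligand of limb outgrowth, had 4012 bp of H3K27ac in 10748 bp of H3K4me3, Wnt11 had 4230 bp in 6294 bp, and the effector Tcf7l2 had 5130 bp in 5961 bp. At Wnt5a this was 1 of 2 H3K27ac peaks that overlapped the H3K4me3 peak. Over all 19 Wnt ligand genes only 3 had both marks (Wnt5a, Wnt5b and Wnt11), 13 had H3K4me3 only and 3 had neither, while 8 of the 10 Frizzled receptor genes had both. Of the 13, Wnt7b had 4852 bp of H3K4me3 and Wnt3 4733 bp, both wider than the median of 3503 bp over all H3K4me3-marked genes.

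In FGF signalling, ligand genes mostly lacked H3K27ac and receptor genes were divided. Of 21 FGF pathway genes, 15 had both marks, among them Dusp6 (7323 bp of H3K4me3 and 5213 bp of H3K27ac) and Spry2 (6018 bp and 5973 bp), which are feedback inhibitors of the pathway. The mesenchymal ligand gene Fgf10 (4875 bp and 4098 bp) also had both. Among the receptor genes listed, Fgfr1 and Fgfr2 had both, and Fgfr3 and Fgfrl1 had H3K4me3 only. Over all 22 FGF ligand genes 4 had both marks, 12 had H3K4me3 only, 1 had H3K27ac only (Fgf21) and 5 had neither. Fgf8, the ligand of the apical ectodermal ridge, had 2580 bp of H3K4me3 with the nearest H3K27ac at 5.21 kb.

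Of 22 BMP pathway genes, 16 had both marks and 6 had H3K4me3 only. The target genes Id2 (8112 bp of H3K27ac on 4819 bp of H3K4me3) and Id1 (7007 bp on 3620 bp) had wider H3K27ac than H3K4me3, whereas Id3 (2891 bp on 3940 bp) had narrower H3K27ac, as had the inhibitory Smad genes Smad7 (6532 bp on 7395 bp) and Smad6 (3916 bp on 5162 bp). The ligand gene Bmp4 had 5161 bp on 5475 bp. Gdf6, a ligand of joint development, had 5038 bp of H3K4me3 and no H3K27ac within 166 kb. Of all 21 BMP and GDF ligand genes, 6 had both and 10 had H3K4me3 only.

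Of 16 hedgehog pathway genes, 11 had both marks, including the transcription factor genes Gli3 (5224 bp of H3K4me3 and 4866 bp of H3K27ac) and Gli2 (4428 bp and 4791 bp), the co-receptor gene Cdon (4123 bp and 5818 bp), and Kif7 and Sufu, which act inside the cell. The ligand gene Dhh had H3K4me3 only, at 5138 bp. Shh, the ligand of the limb's posterior margin, also had H3K4me3 only, at 4354 bp, with the nearest H3K27ac 137 kb from a start site, and Ihh, the ligand of growing cartilage, had neither. Of 16 Notch pathway genes, 6 had both marks, 8 had H3K4me3 only and 2 had neither. Those with both included Notch3 (5811 bp and 3412 bp), Hes1 (5683 bp and 2745 bp) and Jag1 (4857 bp and 4492 bp), and those without H3K27ac included Hey1 (4778 bp) and Dll1 (4691 bp).

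Of 18 retinoid pathway genes, 8 had both marks, 9 had H3K4me3 only and 1 had neither. Cyp26b1, which breaks down retinoic acid in the limb bud, had 5231 bp of H3K27ac in 8012 bp of H3K4me3. The receptor gene Rara had 7693 bp of H3K27ac on an H3K4me3 peak of 4013 bp, while its widest H3K4me3 peak, 4042 bp at other start sites, had none. Of 16 early cartilage genes, 11 had both, among them Sox9 (5384 bp of H3K4me3 and 4835 bp of H3K27ac), the master factor of chondrocytes, and Col2a1 (4925 bp and 3835 bp), the main cartilage collagen. Comp, a matrix protein of later cartilage, had 4999 bp of H3K4me3 with no H3K27ac call. Across all 44 collagen genes 16 had both marks and 20 H3K4me3 only, and Col1a1, of bone and connective tissue, had the widest H3K27ac, 10453 bp against 3835 bp of H3K4me3.

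Of 39 Hox genes, 21 had both marks, 12 had H3K4me3 only and 6 had neither. H3K27ac was wider than H3K4me3 at Hoxc4 (8933 bp and 4041 bp), Hoxd10 (6901 bp and 2447 bp) and Hoxa10 (6007 bp and 2751 bp), although at the last 2 these widest peaks did not overlap, and narrower at Hoxa3 (4100 bp and 6397 bp) and Hoxa11 (4165 bp and 5322 bp). In the HoxC cluster Hoxc4, Hoxc5 and Hoxc6 had both marks, Hoxc8, Hoxc10, Hoxc11, Hoxc12 and Hoxc13 had H3K4me3 only, and Hoxc9 had neither. Hoxc10 had 5358 bp of H3K4me3 and Hoxc11 5111 bp, with the nearest H3K27ac at 32.2 kb and 44.5 kb. In the HoxD cluster Hoxd8, Hoxd9, Hoxd10, Hoxd12 and Hoxd13 had both.

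Among markers of cells other than mesenchyme, H3K4me3 without H3K27ac was the commonest state for endothelial, blood, ectoderm and neuronal genes, but not for muscle precursor or neural crest genes. Of 18 endothelial genes, 3 had both and 12 had H3K4me3 only, among them the receptor gene Kdr (4076 bp, nearest H3K27ac at 158 kb), Sox7 (4098 bp), Pecam1, Cdh5, Tek and Tie1. Of 16 blood genes, 2 had both, Tal1 (7600 bp of H3K4me3 and 3864 bp of H3K27ac) and Klf1 (3181 bp and 3916 bp), 11 had H3K4me3 only, among them Nfe2 (4187 bp) and Gata1 (3332 bp), and 3 had neither. Of 14 muscle precursor genes, 7 had both, among them Myf5 (4457 bp and 3861 bp), and 6 had H3K4me3 only, among them Lbx1 (6260 bp) and Pax3 (5726 bp), which mark migrating precursors. Of 18 ectoderm genes, 7 had both, among them Sp8 (5701 bp and 4104 bp) and Grhl2 (4526 bp and 3503 bp), and 11 had H3K4me3 only, among them Sp6 (4993 bp), Krt18 (4598 bp), Krt5 and Krt14. Of 12 neural crest and glia genes, 4 had both, 4 had H3K4me3 only and 4 had neither, and of 16 neuronal genes the counts were 3, 9 and 4. Among the defining markers of these 2 lists, Sox10, Erbb3, Foxd3, Snap25, Syt1 and Rbfox3 had H3K4me3 only and Neurod1 had neither. Hbb-bt, an adult globin gene, also had neither mark. Tfap2b, shared by crest and other embryonic tissues, had 8794 bp of H3K27ac on 7058 bp of H3K4me3.

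Transcription factor genes listed for neural, endodermal and cardiac development were mostly without H3K27ac, with H3K4me3 alone or with no mark. These lists can hold genes that also act in the limb. Of 40 neural and sensory transcription factor genes, 24 had H3K4me3 only, 15 had neither and 1, Evx2, had both, although 29 of the 40 were CpG-island-like. Evx2 lies next to Hoxd13 and had 5300 bp of H3K27ac on 5283 bp of H3K4me3. H3K4me3-only members included Isl2 (6066 bp), of motor neurons, and Dlx1 (5071 bp), of the forebrain. Of 20 endoderm, gut and pancreas factor genes, 8 had H3K4me3 only, among them Barx1 (4479 bp), Cebpa (4473 bp) and Gata6 (4318 bp), 11 had neither and 1 had both. Of 12 cardiac factor genes, 7 had H3K4me3 only, led by Tbx1 (6528 bp), 3 had neither and 2 had both. No member of the 14 Nkx genes had both, and 8 had H3K4me3 only.

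Among effector genes of differentiated tissues, H3K4me3 only was the commonest state in the ion channel and neurotransmitter receptor families given here. In the other groups given here the commonest state was neither mark. Of 92 potassium channel Kcn genes, 54 had H3K4me3 only, 12 had both and 25 had neither. Of 16 ionotropic glutamate receptor genes 13 had H3K4me3 only, as did 11 of 19 GABA-A receptor genes and 9 of 14 voltage-gated sodium channel genes. Heart muscle genes had H3K4me3 only in 4 of 12 cases, among them Myl7 (4323 bp) and Actc1 (4066 bp), and neither mark in 8. All 14 liver genes had neither, and so did 71 of 93 cytochrome P450 genes, 53 of 63 Serpin genes, 38 of 49 keratin genes, 26 of 27 kallikrein genes and all 25 prolactin family genes.

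Genes used in every cell mostly had both marks. All 16 housekeeping reference genes did, as did all 9 replicative MCM genes, which load the replication helicase, and all 8 chaperonin genes. H3K27ac was wide at Actb (7068 bp on 4441 bp of H3K4me3) and Eef2 (5862 bp on 2841 bp), and narrower than H3K4me3 at Tbp (3564 bp in 5554 bp). Of 84 cytosolic ribosomal protein genes 79 had both marks. Rpl10l, Rpl3l, Rpl39l and Rpl32l, whose names mark them as like other members, had neither, and Rpl23a had H3K4me3 only. Of 48 proteasome genes 40 had both, and Psmb8, Psmb9, Psmb10 and Psme1, known as genes of the immunoproteasome or its activator, were among the 6 with H3K4me3 only. Of 78 mitochondrial ribosomal protein genes 55 had both and 23 had H3K4me3 only. RNA polymerase subunit genes, all 28 with H3K4me3, had both marks at 17 (60.7%), near the 62.3% over all H3K4me3-marked genes. Both marks were found at 25 of 34 tRNA synthetase genes and H3K4me3 only at 9.

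Regulators of chromatin were also mostly acetylated at their own promoters. Of 29 Polycomb and Trithorax genes 26 had both marks, led in width by Pcgf2 (7479 bp of H3K4me3) and Setd1b (6315 bp of H3K27ac on 3381 bp of H3K4me3), and of 22 genes of histone acetylation 19 had both, led by Brd2 (8452 bp of H3K4me3). Of 18 imprinted genes 15 had both, among them Peg3 (5627 bp and 4074 bp) and the growth factor gene Igf2 (5471 bp and 4929 bp, in widest peaks that do not overlap). Of 367 zinc finger Zfp genes 267 had both, although only 43.3% were CpG-island-like, close to the 41.8% of all coding genes. Immediate early genes, which respond to stimuli within minutes, were divided, with 11 of 20 with both and 9 with H3K4me3 only, and 90.0% of them were CpG-island-like. Ier2 (6763 bp and 5497 bp) and Myc (5317 bp and 4459 bp) had both, and Egr3 (5056 bp) and Junb (4444 bp) had H3K4me3 only.

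**Figure D4:**
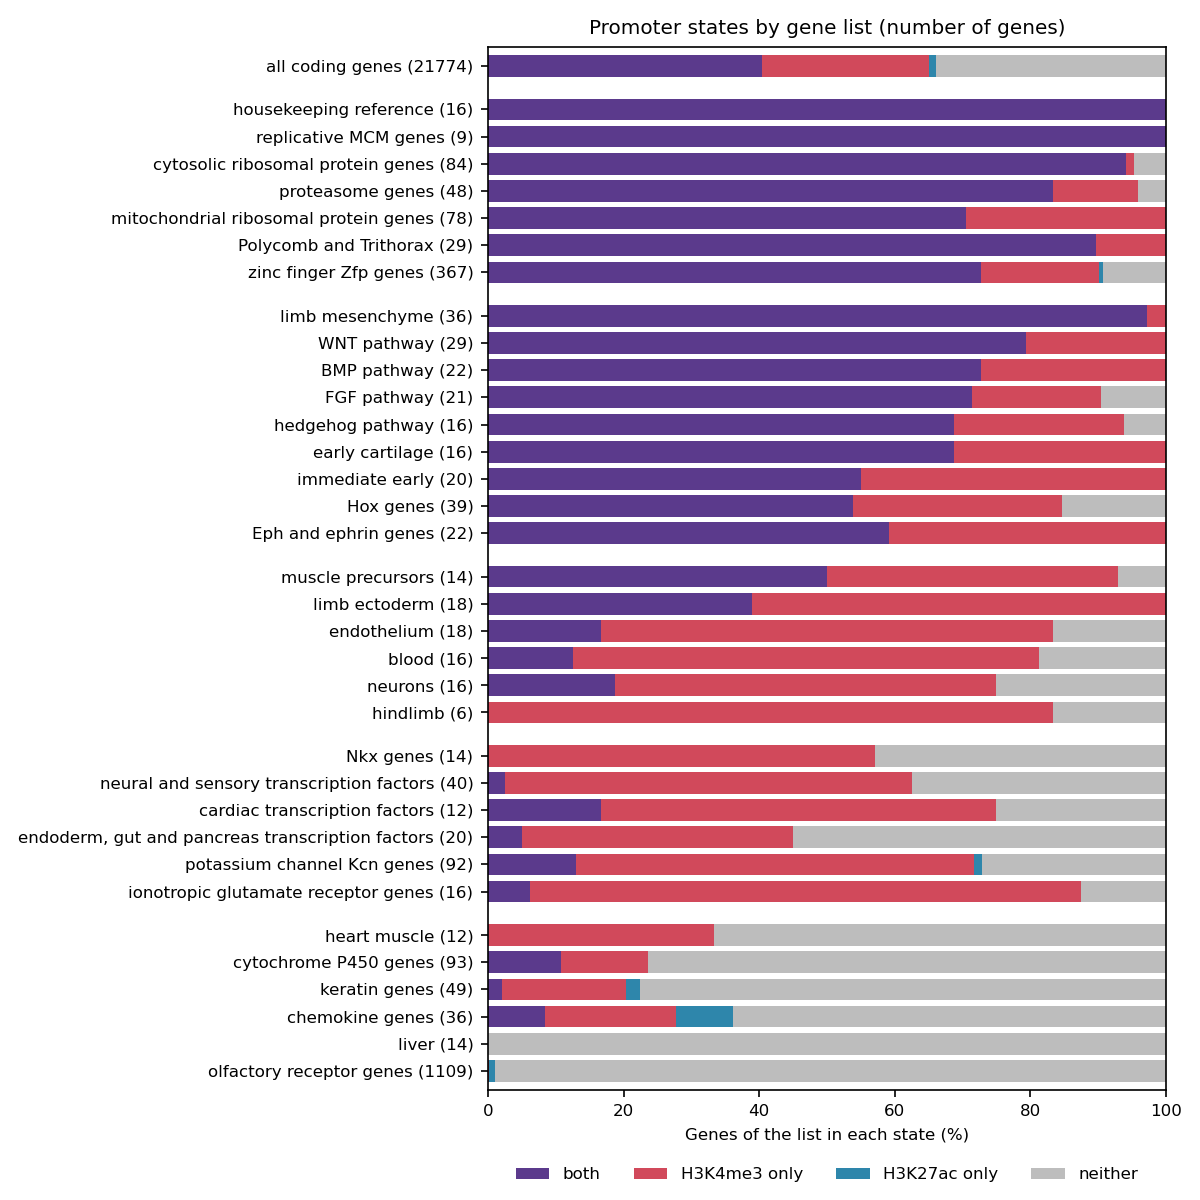
Share of the genes of each list (%) in each promoter state, with the number of genes in brackets and all coding genes at the top. Both marks cover 97.2% of the limb mesenchyme list and 100% of the housekeeping list, while H3K4me3 only covers 24 of the 40 neural and sensory transcription factor genes.

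The H3K4me3-only genes with the widest H3K4me3 included, after Tbx2, Islr2 (8600 bp), Arl6ip4 and Ogfod2 (1 shared peak of 7810 bp), Rpl23a (7595 bp), Psmb3 (7479 bp), the AP-2 factor gene Tfap2e (7057 bp), Tmem114 (6773 bp) and the cell cycle gene Cks1b (6766 bp). At Tbx2, Rpl23a and Psmb3 the H3K4me3 peak overlapped an H3K27ac peak outside the window. The peak of Psmb3, at chr11:97697588-97705066, is also that of its divergent neighbour Pcgf2, where 3995 bp of H3K27ac lay at chr11:97697847-97701841. At Islr2, Tmem114, Tfap2e, Cks1b and the pair Arl6ip4 and Ogfod2 the nearest H3K27ac lay between 12.2 and 84 kb away.

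H3K27ac without H3K4me3 was rare, although its count depended on narrow peaks: it rose from 249 to 1310 genes when only the wider 50% of each list was kept. With all peaks, the widest H3K27ac peaks in this state lay at Zmynd10 (7527 bp), the semaphorin gene Sema3b (7319 bp), Lctl (7010 bp), Aspdh (6966 bp), the cadherin gene Cdh26 (6844 bp), Spdef (6687 bp), an ETS factor of secretory epithelium, and Casq1 (6616 bp), a calcium-binding protein of muscle. Sbpl (6321 bp), Nxnl1 (6288 bp) and Cfap157 (6239 bp) completed the 10. The nearest H3K4me3 lay between 1.33 and 2.36 kb away at Sema3b, Zmynd10, Aspdh and Nxnl1, and between 6.69 and 39.5 kb away at the other 6.

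Over all 249 H3K27ac-only genes the nearest H3K4me3 peak lay a median of 24.4 kb from a start site, and within 5 kb at 47. The H3K27ac peak overlapped an H3K4me3 peak beyond the window at 22 of them, and at 20 it also touched a start site of a gene with both marks. Genes named only by a locus or clone identifier made up 13.3% of this state, against 2.71% of genes with both marks, 3.43% with H3K4me3 only and 18.1% with neither. Among the named gene groups, 10 of 1109 olfactory receptor genes, 5 of 123 canonical histone genes and 3 of 36 chemokine genes (Ccl3, Ccl4 and Cxcl17) were in this state, against 1.14% of all coding genes. The olfactory count, under 1 in 100, is near that background and is no result about the family. Pou5f1, the pluripotency factor gene, had 4996 bp of H3K27ac with H3K4me3 5.93 kb away, and Piwil2, of the germline, had 2584 bp.

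The state of the pig gene of the same symbol gave a readout from other animals, over 14946 pairs taken as orthologs. Of these pig genes, 54.0% had both marks, 23.8% had H3K4me3 only, 1.52% had H3K27ac only and 20.7% had neither. Of 7632 orthologs with both marks in mouse, 82.0% had both in pig (81.1 to 82.8) and 12.9% had H3K4me3 only. Of 4604 with H3K4me3 only in mouse, 48.8% had H3K4me3 only in pig (47.3 to 50.2), 36.3% had both and 13.9% had neither. Of 150 with H3K27ac only in mouse, 18 had H3K27ac only in pig (7.73% to 18.2%) and 62.7% had neither (54.7 to 70.0). Of 2560 with neither in mouse, 79.3% had neither in pig.

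Within a mouse state the pig state also followed CpG content. Of H3K4me3-only orthologs with a CpG-island-like 5′ end in mouse, 43.4% had both marks in pig (41.4 to 45.4) and 7.26% had neither, against 28.4% (26.5 to 30.3) and 21.3% without one. Of orthologs with both marks in mouse, 85.7% of the CpG-island-like and 72.5% of the others had both in pig. Tbx2, Tbx4 and Pax3 had H3K4me3 only in both species. Rpl23a and Psmb9 had both marks in pig. The species also differed in the read length of the H3K4me3 and H3K27ac libraries at sequencing, so species and read length cannot be told apart.

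**Figure D5:**
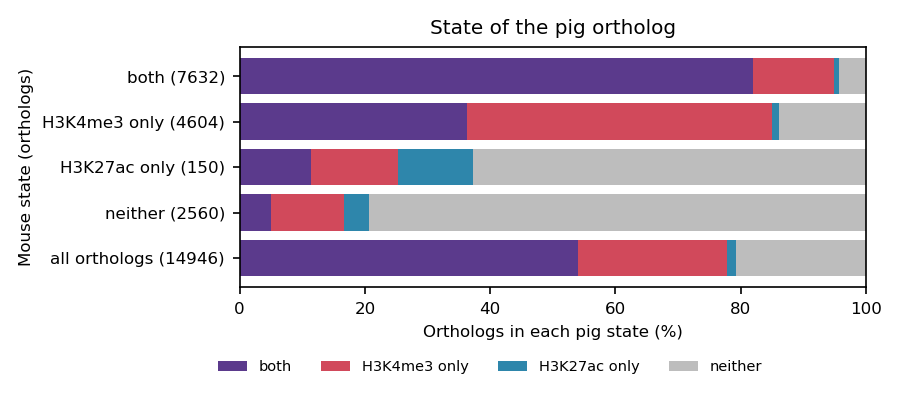
State of the pig ortholog (% of orthologs) for each mouse promoter state, with the number of orthologs in brackets. Both marks were kept in 82.0%, H3K4me3 only in 48.8% and H3K27ac only at 18 of 150 genes, and the lowest bar gives all orthologs, of which 54.0% had both in pig.

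States also differed by chromosome. On the autosomes 41.4% of 20558 genes had both marks (40.7 to 42.0) and 32.4% had neither, while on the X chromosome 31.5% of 963 had both (28.6 to 34.5) and 48.2% had neither. On the Y chromosome 5 of 253 genes had both and 248 had neither.

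Genes with more than 1 marked promoter showed that the 2 marks can part within a gene. Of the 869 genes with 2 or more separate H3K4me3 peaks at their start sites, H3K27ac overlapped all of these peaks at 260 genes (29.9%), some of them at 358 (41.2%) and none at 251 (28.9%). Of these 358, 17 were members of the lists of named symbols, and the genes described here were chosen from those 17 after their values had been seen. At Runx2, the factor of bone formation, the upstream peak at chr17:44811128-44814593 had no H3K27ac, while the peak at the downstream start sites, chr17:44732987-44737999, carried 4985 bp. Runx1, of blood and cartilage, had no H3K27ac at its upstream peak, chr16:92822662-92826097, and 4293 bp on the downstream one, chr16:92693206-92698770. The upstream peaks of Ptch1 (2754 bp), the hedgehog receptor gene, Lhx9 (3848 bp) and Lhx2 (3836 bp) likewise had none, while their downstream peaks of 3351, 5301 and 6910 bp did.

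The reverse was found at other genes. At Gli2 the upstream peak (4428 bp) carried 4791 bp of H3K27ac and the downstream peak (3702 bp) none, and at Erg, an ETS factor of endothelium, the upstream peak (3401 bp) carried 1900 bp and the downstream peak (3202 bp) none. At Wnt5b the downstream peak was the wider (5285 bp) and had no H3K27ac, while the upstream peak of 3860 bp carried 3830 bp. Because a gene was placed by any of its start sites, all of these genes count among the 8810 with both marks.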

How the data were processed

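Peak positions, as the authors deposited them, hold chromosome, start and end for each peak, with no signal, score or p-value. Per the series' design text, reads of 50 bp were aligned to GRCm38/mm10 and peaks were called in broad mode at an irreproducible discovery rate below 0.01. The submitters' processing notes name FastQC (0.11.9), Trimmomatic (0.39) and Bowtie2 (2.3.5), besides SAMtools (1.9) and deepTools (3.5). For the peak caller, a name was not given in the sources used here. The 17 H3K4me3 and 15 H3K27ac peaks on unplaced scaffolds were not used.

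Overlaps, widths and base composition were computed with Python 3.11.15, numpy 2.4.6 and pysam 0.24.0, and the assignment of states was first tested on simulated data. Shares have Wilson intervals and medians have order-statistic intervals, and no test between groups was made because each list is a single consensus. Genes, gene lists and comparisons were chosen with earlier results of these data known. Named genes are the widest members of each list, up to 6, with the cell type markers, the 10 widest H3K4me3-only and H3K27ac-only genes and the 10 largest and smallest ratios. Genes named by a locus or clone identifier were passed over, and a few genes that the rule names are not reported here. Others, such as Shh, Ihh, the HoxC and HoxD genes and the ligands and subunits that fall outside a group's majority, were chosen after their values were seen. Sequencing depth and the way a broad caller joins nearby stretches can both change peak widths, and neither is known here.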

Additional observations from a re-analysis of the deposited data

How the results depend on the processing

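No paired analysis was possible because each mark has 1 consensus list with no columns per replicate, and for the same reason leaving out a replicate could not be run. Windows of 500 bp and 2.5 kb, curated transcripts only, an overlap of at least 500 bp, both marks at the same start site, and H3K4me3 peaks that themselves overlap H3K27ac left the counts within 1.5 times of those reported and the medians within their intervals. With the gene's 5′ end alone, 60.5% of H3K4me3-marked genes had H3K27ac, and with each H3K4me3 peak counted once, an alternative chosen after seeing the data, 58.6% did. Keeping the wider 75% of each list, in place of a stricter threshold, gave 745 H3K27ac-only genes, a share of 59.9%, a median width ratio of 0.897 and median H3K4me3 widths of 3688 bp with H3K27ac and 3495 bp without. Keeping the wider 50% gave 4114 genes with both marks, 1310 with H3K27ac only, 11676 with neither, a share of 46.8%, a ratio of 0.953 and widths of 3916.5 bp and 3772.5 bp. The number of H3K27ac-only genes thus rose when narrower peaks were dropped from both lists. The ratio was 0.867 with summed widths and 0.886 with peaks closer than 1 kb joined, and with each overlapping pair of peaks counted once it stayed within its interval. CpG-island-like shares at genes with both marks, H3K4me3 only and neither were 61.9%, 46.9% and 3.16% in the 300 bases at the start, and 55.3%, 39.1% and 1.36% with at least 55% GC and a CpG ratio of 0.65, and their order did not change. Depth per sample is unknown, so it cannot be said which missing calls a deeper library would fill.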

Other observations

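The share of olfactory receptor genes with H3K27ac and no H3K4me3, 10 of 1109, was near the 1.14% of all coding genes. The 10 lay on 6 chromosomes, with peaks of 1118 to 5651 bp, and the nearest H3K4me3 was 5.01 to 388 kb away. The family's other members mostly had neither mark, at 1097 genes. Only 2 olfactory receptor genes had H3K4me3, Olfr1419 and Olfr94, with peaks of 3754 bp and 2663 bp and no H3K27ac.

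Several neighbouring collagen genes shared 1 promoter peak between 2 members. Col4a1 and Col4a2 shared 4138 bp of H3K4me3 and 2752 bp of H3K27ac, while Col4a3 and Col4a4 shared 1 H3K4me3 peak, and Col4a5 and Col4a6 shared one of 3843 bp, both without H3K27ac.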
